A study of Mus musculus with 10 samples.

Results

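NRF2 target genes and genes of glutathione metabolism were examined in mouse lung tumors with and without the glucose transporter gene Slc2a1, which encodes Glut1. The set held 40 genes, taken by symbol from a table of 39017 genes, and its 2 regulators, Nfe2l2 and Keap1, are counted among them. RNA sequencing had been performed on 10 CD45-negative tumor fractions, 5 from KP mice (the control group) and 5 from KPG1 mice, which in addition carried floxed Slc2a1 on both copies. KP mice develop lung adenocarcinoma once Cre recombinase reaches the airways. For the 5 controls, one label gives a heterozygous floxed Slc2a1 allele and another gives wild type. All mice were males of the C57BL/6 strain, and in both groups an adenovirus carried Cre under the SPC promoter, which limits recombination to cells that make surfactant protein C. Tumors were macrodissected 18 weeks and 6 days after initiation and depleted of leukocytes with CD45 beads, so a fraction still held tumor cells together with endothelial cells and fibroblasts. The labels do not say whether libraries came from separate mice, and p-values measure the spread between these libraries only.

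NRF2, the product of Nfe2l2, is a transcription factor of the cap'n'collar family that binds antioxidant response elements as a dimer with a small Maf protein. Keap1 holds NRF2 in the cytosol and presents it to a Cul3 ubiquitin ligase for degradation, and electrophiles or oxidants that modify Keap1 let NRF2 accumulate. Its targets make glutathione and NADPH, recycle thioredoxin, restore overoxidized peroxiredoxins, conjugate electrophiles, and store iron. Loss of Keap1 function is known in human lung adenocarcinoma. Because NRF2 is set largely by protein turnover, the mRNA of Nfe2l2 is not a measure of NRF2 activity.

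Promoter sequences are shown first because NRF2 binds the antioxidant response element, whose core is written here as TGACNNNGC. RefSeq windows on GRCm38.p6, from 250 bases before to 50 bases after a transcription start, were found for 34 of the 40 genes, in 43 windows. On either strand, the core was present in 10 of these 43 windows (23.3%), against 12.4% of all 32851 windows, and each belonged to a different gene: Nfe2l2, Ugdh, Gclm, Gsta3, Gstm5, Mgst1, Srxn1, Txnrd1, Prdx1 and Sod1. The AP-1 site, written as TGANTCA, was present in 5 windows (11.6%), of Gstm5, Gstp1, Mgst2, Srxn1 and Prdx1, against 7.81% of all windows. The letters of both motifs overlap in part, since an AP-1 site of the form TGACTCA can open a core. Hmox1, Gclc, Gsr, Gsta4, Prdx6 and Sod3 had no entry. The 3 windows below belong to core NRF2 targets that hold the element, and capitals mark the core, read on the minus strand in each, and in Srxn1 also both AP-1 sites.
Srxn1: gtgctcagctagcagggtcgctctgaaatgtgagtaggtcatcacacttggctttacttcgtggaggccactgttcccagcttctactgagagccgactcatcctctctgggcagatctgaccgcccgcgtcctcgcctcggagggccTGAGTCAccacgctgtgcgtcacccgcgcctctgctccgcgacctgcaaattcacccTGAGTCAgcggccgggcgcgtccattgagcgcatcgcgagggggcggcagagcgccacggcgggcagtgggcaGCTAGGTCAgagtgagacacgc
Gclm: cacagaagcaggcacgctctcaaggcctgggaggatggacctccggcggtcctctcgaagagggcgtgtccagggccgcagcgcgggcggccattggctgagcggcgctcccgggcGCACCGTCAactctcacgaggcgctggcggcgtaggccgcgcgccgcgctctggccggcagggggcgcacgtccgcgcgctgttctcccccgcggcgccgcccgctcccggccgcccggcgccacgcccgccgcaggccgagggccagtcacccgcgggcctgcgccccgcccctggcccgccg
Txnrd1: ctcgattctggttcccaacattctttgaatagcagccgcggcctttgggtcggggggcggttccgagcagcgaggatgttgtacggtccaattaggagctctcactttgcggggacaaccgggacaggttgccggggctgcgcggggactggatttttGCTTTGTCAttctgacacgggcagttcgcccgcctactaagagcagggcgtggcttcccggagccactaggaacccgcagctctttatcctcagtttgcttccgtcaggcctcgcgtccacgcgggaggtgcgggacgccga
The Srxn1 window lies at chr2:152105274-152105573, plus strand, with the core TGACCTAGC from base 29 to base 37 after the start and the AP-1 site TGAGTCA at -102 to -96 and at -45 to -39. The AP-1 site at -45 to -39 is followed by gc and so reads TGAGTCAGC. The core as searched, TGACNNNGC, could not match it because it fixes a C after TGA. The Gclm window lies at chr3:122245307-122245606, plus strand, with the core TGACGGTGC at -134 to -126. The Txnrd1 window, 1 of 3 for this gene and at a start inside the annotated gene, lies at chr10:82858956-82859255, plus strand, with the core TGACAAAGC at -92 to -84. The windows of Ftl1 and Gss held neither motif. A match is a description of letters in these windows and not evidence of binding.

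The deletion was checked first. Slc2a1 ranged from 71.7 to 127 CPM in KP (CPM is the count relative to the scaled total of its library) and from 40.8 to 66.8 in KPG1, with means of 102 ± 25.4 (SD, n = 5) and 50.1 ± 10.1 (SD, n = 5), and no overlap. The fitted log2 fold change was -1.01 ± 0.20 (SE), with a limma adjusted p of 0.0675, which missed the threshold of 0.05, and the 2-sided exact permutation test over 252 rearrangements gave its lowest possible p, 0.00794. Libraries held 32427029 to 49534284 counts, the deepest being KP 5. Surfactant and other alveolar type 2 markers were abundant in every library, at a summed 18880 to 65156 CPM in KP and 50206 to 94207 in KPG1, with a fitted value above 0 for all 10 of them. Of the summed markers of cells that remain or should have been removed, leukocyte genes lay at 299 to 564 CPM in KP and 388 to 499 in KPG1, endothelial genes at 287 to 951 and 433 to 1378, and fibroblast genes at 116 to 285 and 184 to 314. Fitted values lay above 0 for 7 of 7 endothelial and 7 of 7 fibroblast genes, and for 2 of 7 leukocyte genes. Macrophage genes, 8 of 8 with a fitted value below 0, lay at 51.3 to 107 CPM in KP and 37.7 to 88.4 in KPG1.

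All 40 genes were expressed highly enough to be tested, with 72 to 60017 counts per library. None passed an adjusted p of 0.05 in the limma fit, where 28 of all 16216 genes tested (0.173%) passed, 0.111% lower and 0.0617% higher in KPG1. In edgeR 0 of the 40 passed, against 0.247% of all genes, and in DESeq2 2 of them (5.0%), Srxn1 and Ftl1, against 3.38% of all genes. At an unadjusted p under 0.05, 4 genes (10%) were lower in KPG1, Srxn1, Ftl1, Gss and Gsta4, against 6.31% of all genes, and 0 were higher, against 5.26%. Fitted values lay below 0 for 29 of 40 genes (72.5%), against 47.3% of all genes, and the median log2 fold change was -0.17 over the 40 genes and 0.02 over all genes tested. The libraries of both groups stood apart without overlap for 2 of the 40 genes (5.0%), Srxn1 and Ftl1, both lower in KPG1, against 1.76% of all genes, and none was higher without overlap, against 1.05%. The SD of log2 CPM was larger in KP than in KPG1 for 24 genes (60%), against 73.5% of all genes. The 40 genes were chosen with earlier results of these data known, so their shares beside those of all genes are descriptions only. In bulk fractions such as these, fewer cells of a type and less RNA per cell cannot be told apart.

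**Figure D1:**
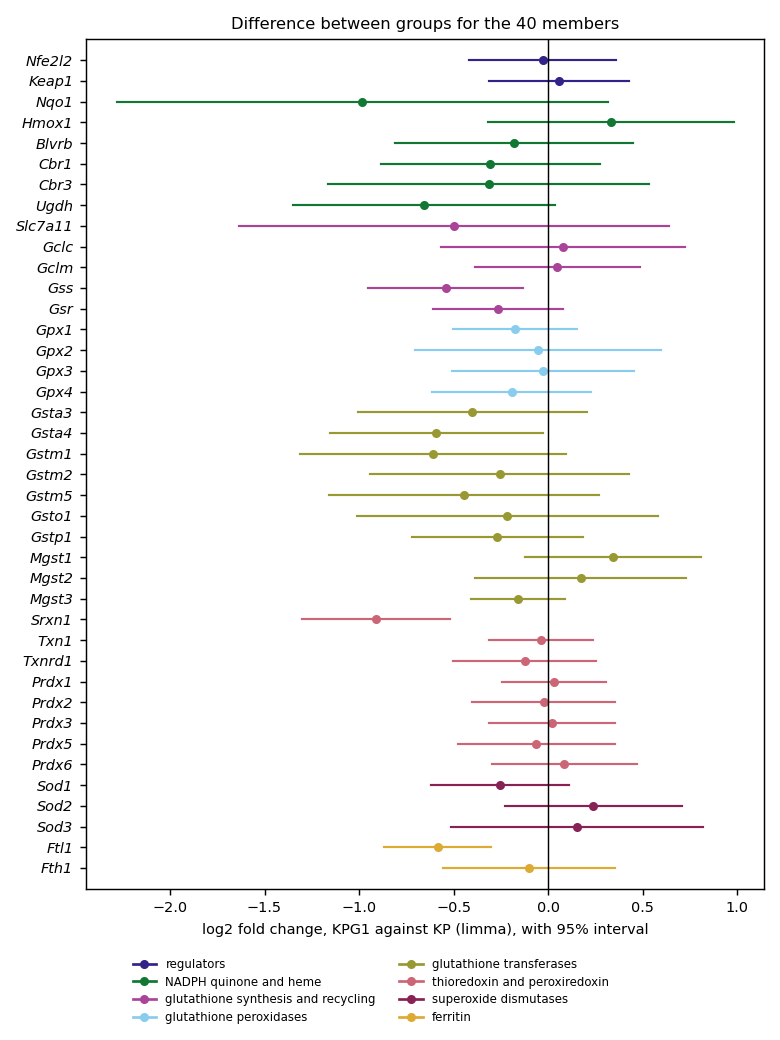
Fitted log2 fold change (KPG1 minus KP) of each of the 40 genes with its 95% confidence interval from limma, ordered by role. Srxn1, Ftl1, Gss and Gsta4 are the 4 genes whose interval lies wholly below 0, and no interval lies wholly above it.

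Srxn1 encodes sulfiredoxin, which uses ATP to restore overoxidized peroxiredoxins, and lies on chr2:152105516-152111376, plus strand, with no overlapping gene. In KP 1 to 5 it stood at 6.13, 6.01, 5.67, 6.06 and 6.56 log2 CPM, and at 5.53, 5.27, 4.84, 5.09 and 5.14 in KPG1 1 to 5. Every KPG1 library lay below every KP library, and the closest pair was KP 3 and KPG1 1. Mean levels were 69.2 ± 15.8 CPM in KP and 36.5 ± 6.53 in KPG1 (SD, n = 5 each), so the KPG1 mean was 52.8% of the KP mean. The fitted log2 fold change was -0.91 ± 0.18 (SE), 95% interval -1.30 to -0.52, with an unadjusted p of 0.000306 and a limma adjusted p of 0.0699. The adjusted p ranged from 0.000544 to 0.265 over 19 alternative analyses and lay under 0.05 in 4 of them, with DESeq2 (0.000544), with a mean of at least 20 CPM required (0.0445), with a weight per library (0.0214) and without KP 5 (0.0395).

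Ftl1 encodes the light chain of ferritin, the iron storage protein, and lies on chr7:45457944-45459884, minus strand, where Gm22133 overlaps it on the same strand and Gm10252 on the other. Its log2 CPM was 8.90, 9.28, 9.17, 9.30 and 8.90 in KP and 8.40, 8.78, 8.41, 8.50 and 8.53 in KPG1. All KPG1 libraries were again below all KP libraries, with KPG1 2 the highest of its group. The means were 557 ± 75.4 CPM in KP and 370 ± 41.3 in KPG1 (SD, n = 5 each), or 66.5% of the KP mean. The fitted log2 fold change was -0.59 ± 0.13 (SE), 95% interval -0.87 to -0.30, with a limma adjusted p of 0.116, and the adjusted p lay under 0.05 in 3 of the 19 alternatives, with DESeq2 (0.00138), with a weight per library (0.0283) and without KP 5 (0.0378). Its partner Fth1, the heavy chain, which oxidizes iron, stood at 9.51, 10.24, 10.04, 10.37 and 10.14 in KP and 10.36, 10.15, 9.42, 9.77 and 10.10 in KPG1. The ranges of Fth1 overlapped almost fully, and its fitted value was -0.10 ± 0.21 (SE), 95% interval -0.55 to 0.36, adjusted p 0.887.

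Stretches near-identical to Ftl1 occur in 13 other genes, 6 of them with counts, among which reads may be split. Ftl1-ps1 matched it at 99.6% identity over 910 bases and Gm15590 at 99.1% over 552 bases. Ftl1-ps1 lay at 13.5 to 18.6 CPM in KP and 14.1 to 57.7 in KPG1, with a fitted log2 fold change of 0.84 ± 0.39 (SE). Gm15590 lay at 47.8, 16.8, 230, 233 and 25.4 CPM in KP and 31.3, 39.8, 4.01, 8.60 and 20.9 in KPG1, with the high values in KP 3 and KP 4. Summed over the 3 genes, the level was 683 ± 163 CPM in KP and 423 ± 59.8 in KPG1 (SD, n = 5 each), 61.9% of the KP mean, and the groups did not overlap, at 518 to 876 and 359 to 512 CPM.

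**Figure D2:**
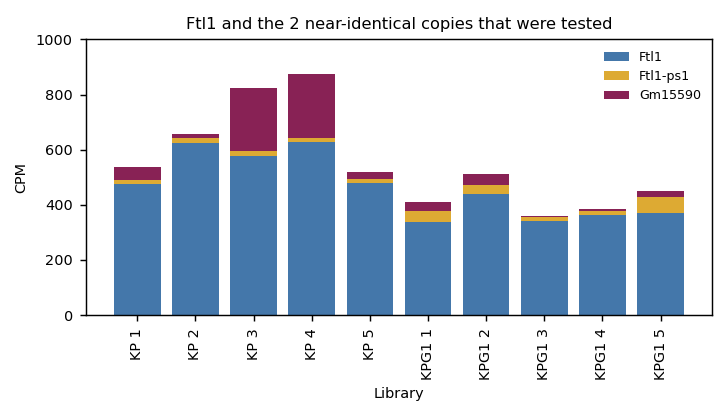
Stacked bars of the levels (CPM, axis from 0) of Ftl1 and its copies Ftl1-ps1 and Gm15590 in each of the 5 KP and 5 KPG1 libraries. The summed height is without overlap between groups, while the 2 copies differ from each other in which libraries are high.

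Some marker lists also differed between the groups. Summed epithelial markers, which the tumor cells themselves express, lay at 4191 to 5632 CPM in KP and 3211 to 3804 in KPG1 without overlap, and summed neutrophil markers at 5.96 to 17.4 and 1.71 to 5.11, also without overlap, with all 4 tested neutrophil markers below 0 and Ly6g at 0 to 2 counts. Within the epithelial list, 2 of 5 genes had a fitted value above 0 and 3 below, and the latter included the keratins Krt8 and Krt18. Proliferation markers went the other way, with 8 of 8 above 0, and overlapped between groups, at 46.3 to 272 CPM in KP and 231 to 399 in KPG1. Their part in the values of Srxn1 and Ftl1 was not tested.

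Neither regulator passed the test. Nfe2l2 (chr2:75675513-75704641) stood at 8.93, 8.99, 8.85, 8.73 and 9.53 log2 CPM in KP and 8.51, 9.10, 9.09, 9.18 and 8.99 in KPG1, so the highest and the second lowest libraries were both KP. Its fitted log2 fold change was -0.03 ± 0.18 (SE), 95% interval -0.42 to 0.36, adjusted p 0.967. Keap1 (chr9:21229730-21239361), its inhibitor, stood at 5.39, 5.63, 5.73, 5.36 and 6.25 in KP and 5.59, 5.72, 5.67, 5.96 and 5.72 in KPG1. Its fitted value was 0.06 ± 0.17 (SE), 95% interval -0.31 to 0.43, adjusted p 0.920. Per kilobase of exon, Nfe2l2 averaged 136 CPM and Keap1 11.2 CPM over the 10 libraries.

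Both subunits of glutamate-cysteine ligase, which makes the first and rate-limiting step of glutathione synthesis, were close to 0. The catalytic subunit Gclc stood at 7.63, 8.99, 8.70, 8.67 and 9.62 log2 CPM in KP and 8.70, 8.94, 8.51, 8.83 and 9.01 in KPG1, with KP 1 lowest and KP 5 highest of all 10 libraries. The modifier subunit Gclm stood at 5.57, 5.51, 5.26, 6.20 and 6.35 in KP and between 5.76 and 5.92 in KPG1. For both, the KPG1 libraries lay within the KP range. The fitted log2 fold change was 0.08 ± 0.29 (SE) for Gclc, 95% interval -0.57 to 0.72, and 0.05 ± 0.20 (SE) for Gclm, 95% interval -0.39 to 0.48, with limma adjusted p of 0.940 and 0.947. The sign of both turned under some alternatives, such as edgeR (-0.05 and -0.01).

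Gss, glutathione synthetase, which adds glycine in the second step, was among the 4 genes under an unadjusted p of 0.05. Its log2 CPM was 6.28, 6.05, 6.39, 6.78 and 7.05 in KP and 5.90, 6.00, 6.19, 6.05 and 5.69 in KPG1. KPG1 3 lay above KP 2, so the groups overlapped. The means were 93.9 ± 26.8 and 62.9 ± 7.95 CPM (SD, n = 5 each), and the fitted log2 fold change was -0.54 ± 0.19 (SE), 95% interval -0.95 to -0.13, unadjusted p 0.0139, limma adjusted p 0.302. Acss2, Gssos1 and Gssos2 overlap Gss on the opposite strand, and the strand setting of the counting is not stated. Gsr, glutathione reductase, which returns oxidized glutathione to its reduced form with NADPH, ranged from 6.86 to 7.50 in KP and from 6.55 to 7.28 in KPG1, with a fitted value of -0.27 ± 0.16 (SE) and an adjusted p of 0.543.

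Slc7a11, the cystine transporter that supplies cysteine for glutathione, varied widely. It stood at 4.06, 4.10, 3.95, 5.27 and 5.79 log2 CPM in KP and 2.50, 4.83, 3.88, 4.70 and 5.08 in KPG1, with KPG1 1 far below the others. Its fitted log2 fold change was -0.50 ± 0.52 (SE), 95% interval -1.64 to 0.64, adjusted p 0.750. It was 0.039 with a weight per library, -0.063 without KPG1 1 and -1.20 with the sample number as covariate. Its level is uncertain, because stretches of at most 375 bases are near-identical to stretches of 9 other genes. The counts of these genes sum to 696% of its own, mostly from the tubulin genes Tuba1a (14312), Tuba1b (25223) and Tuba1c (29304).

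Of the quinone, carbonyl and heme enzymes, 5 of 6 had a fitted value below 0 (median -0.31) and 0 passed at an unadjusted p of 0.05. Nqo1, an NADPH-dependent quinone reductase often used as an NRF2 readout, stood at 4.01, 2.95, 1.93, 3.89 and 4.33 log2 CPM in KP and 4.14, 2.67, 1.66, 1.08 and 2.72 in KPG1. It had the largest fitted difference of all 40 genes, -0.98, with an SE of 0.59, a 95% interval of -2.28 to 0.32 and an adjusted p of 0.550. KPG1 1 was the second highest of all libraries for Nqo1, and its counts were as low as 72. Ugdh, UDP-glucose dehydrogenase, which makes the sugar donor for glucuronidation, stood at 8.10, 6.62, 7.01, 8.48 and 7.04 in KP and 6.76, 6.95, 6.57, 6.92 and 6.76 in KPG1. KP 1 and KP 4 were high, the other KP libraries lay near KPG1, and the fitted value was -0.66 ± 0.32 (SE), 95% interval -1.35 to 0.04, adjusted p 0.457. KP 1 and KP 4 also had the lowest summed alveolar type 2 markers of all libraries, at 18880 and 29699 CPM. The part of this in their Ugdh values was not tested.

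Hmox1, inducible heme oxygenase, was the only one of these 6 enzymes with a fitted value above 0 in limma. It stood at 6.15, 6.64, 6.80, 5.83 and 5.42 log2 CPM in KP and 7.09, 6.97, 5.97, 6.24 and 6.23 in KPG1, and the groups overlapped. The fitted log2 fold change was 0.33 ± 0.30 (SE), 95% interval -0.32 to 0.98, adjusted p 0.702. The carbonyl reductases Cbr1 and Cbr3 had fitted values of -0.31 each, and both peaked in KP 5, at 7.64 and 6.44. Blvrb, a biliverdin reductase, had a fitted value of -0.18. The adjusted p of the 6 enzymes ranged from 0.457 to 0.847.

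Glutathione transferases, which join glutathione to electrophiles, had fitted values below 0 for 8 of 10 genes (median -0.26), where 47.3% of all genes had one, and 1 of 10 was lower at an unadjusted p under 0.05, near the 6.31% of all genes. Gsta4, which conjugates the lipid peroxidation product 4-hydroxynonenal, stood at 7.95, 8.01, 8.17, 9.19 and 8.05 log2 CPM in KP and 7.25, 7.88, 7.27, 7.95 and 8.04 in KPG1. KP 4 lay far above the other KP libraries. The fitted log2 fold change was -0.59 ± 0.26 (SE), 95% interval -1.16 to -0.03, unadjusted p 0.0412, limma adjusted p 0.408, and without KP 4 it was -0.37 with an unadjusted p of 0.0752. Gstm1, the most abundant of the 40 genes per kilobase of exon, stood at 9.77, 8.86, 8.83, 9.61 and 10.36 in KP and 8.04, 9.30, 8.80, 8.97 and 9.23 in KPG1. KP 5 was highest and KPG1 1 lowest, and the fitted value was -0.61 ± 0.32 (SE), 95% interval -1.31 to 0.09, adjusted p 0.494.

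The remaining cytosolic transferases had fitted values of -0.40 for Gsta3, -0.26 for Gstm2, -0.44 for Gstm5, -0.22 for Gsto1 and -0.27 for Gstp1. For Gsta3, Gstm2 and Gstm5 the lowest library was KPG1 1, as it was for Gstm1 and Gsta4. The microsomal members, membrane proteins that also reduce lipid peroxides, did not share one sign. Mgst1 stood at 8.55, 9.12, 8.83, 8.59 and 9.71 log2 CPM in KP and 9.17, 9.57, 9.08, 9.31 and 9.37 in KPG1, the largest fitted value above 0 among the 40 genes (0.34 ± 0.21 SE, 95% interval -0.13 to 0.81, adjusted p 0.564). Mgst2 and Mgst3 had fitted values of 0.17 and -0.16.

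Glutathione peroxidases, which reduce hydrogen and lipid peroxides, had small fitted values below 0, -0.18 for Gpx1, -0.06 for Gpx2, -0.03 for Gpx3 and -0.19 for Gpx4, with adjusted p from 0.683 to 0.975. Gpx4, which protects membranes from lipid peroxidation and so from ferroptosis, ranged from 6.66 to 7.45 log2 CPM in KP and from 6.30 to 7.01 in KPG1. Txnrd1, thioredoxin reductase, stood at 7.41, 7.32, 7.58, 7.70 and 8.22 in KP and 7.26, 7.49, 7.69, 7.71 and 7.46 in KPG1. Its groups overlapped, with KP 5 the highest and KPG1 1 the lowest of all libraries. The fitted log2 fold change of Txnrd1 was -0.12 ± 0.17 (SE), 95% interval -0.50 to 0.25, limma adjusted p 0.823.

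Thioredoxin and the peroxiredoxins had fitted values close to 0. Txn1, the thioredoxin of the cytosol, had a fitted value of -0.04, 95% interval -0.31 to 0.24, and Prdx1, the abundant cytosolic peroxiredoxin, 0.03, 95% interval -0.24 to 0.31. Prdx2, Prdx3, Prdx5 and Prdx6 had fitted values of -0.02, 0.02, -0.06 and 0.09, and the widest of these intervals, for Prdx5, ran from -0.48 to 0.35. The fitted value of Srxn1, which acts on peroxiredoxins, was -0.91, and no test was made of the difference between genes. The superoxide dismutases had fitted values of -0.25 for cytosolic Sod1, 0.24 for mitochondrial Sod2 and 0.15 for extracellular Sod3, with adjusted p from 0.588 to 0.880. Levels are uncertain where other genes with counts share near-identical stretches. Their counts sum to 26.9% of the gene's own for Prdx1 (matches of up to 597 bases). The sum is 22.6% for Sod1 (465 bases) and 45.3% for Gstm2 (145 bases). For Prdx2 it is 104%, mostly from Junb (77346 counts, 176 bases) and Rnaseh2a (11573 counts, 154 bases). Both overlap Prdx2 on the opposite strand, and its match of 597 bases, Tdpx-ps1, held 991 counts. For Gstm5 the sum is 76.2% (181 bases), from 4933431E20Rik, which overlaps it on the opposite strand. Sod2 shares stretches of at most 193 bases with 19 other genes, whose counts sum to 2693% of its own. Pabpc1 held the most of these (417951 counts, 106 bases).

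**Figure D3:**
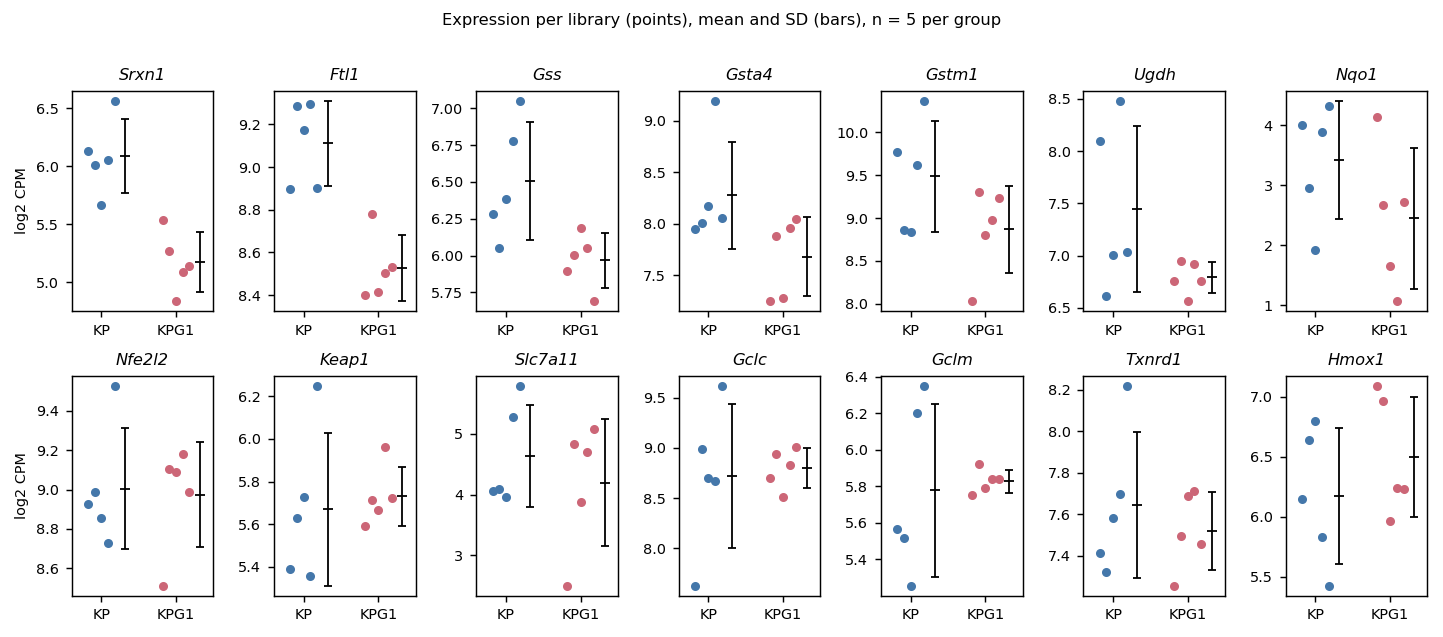
Normalized expression (log2 CPM) of the named genes in each of the 10 libraries, with the mean and SD of each group (n = 5) as bars beside the points and an axis of its own for each gene. For Srxn1 and Ftl1 all KPG1 points lie below all KP points, and for Nfe2l2, Keap1, Gclc and Gclm the groups overlap.

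Levels per kilobase of exon spanned the 40 genes widely. The mean over 10 libraries was 430 CPM per kilobase for Gstm1, 346 for Ftl1, 304 for Fth1, 287 for Mgst1 and 255 for Prdx1, and within Gstm1 alone libraries ranged from 178 to 893. At the low end were Sod3 (0.974), Slc7a11 (1.80), Blvrb (5.05) and Nqo1 (6.31, range 1.32 to 12.9). Neighbours in this order overlapped in their ranges among the genes named here, as for Slc7a11, which reached 3.96, and Blvrb, which went down to 3.08. The annotated Slc7a11 is unusually long, which lowers its value on this scale.

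Single libraries held many of the extremes. KP 5 was the highest library for 19 genes (47.5%), against 22.2% of all genes, and KP 4 for 9 (22.5%), against 10.7%. The lowest library was KPG1 3 for 11 genes (27.5%), against 7.15% of all genes, and KPG1 1 for 10 (25.0%), against 12.5%. The median deviation of the 40 genes from their own mean was 0.42 log2 units in KP 5 and -0.33 in KPG1 3. KP 5 was also the deepest library and had the lowest summed markers of proliferation (46.3 CPM), endothelium (287 CPM) and fibroblasts (116 CPM) and the highest of leukocytes (564 CPM). The part of these in the KP 5 values was not tested. Without KP 5, Srxn1 and Ftl1 passed the adjusted threshold (0.0395 and 0.0378), but so did 294 of all genes, where 28 passed with it.

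**Figure D4:**
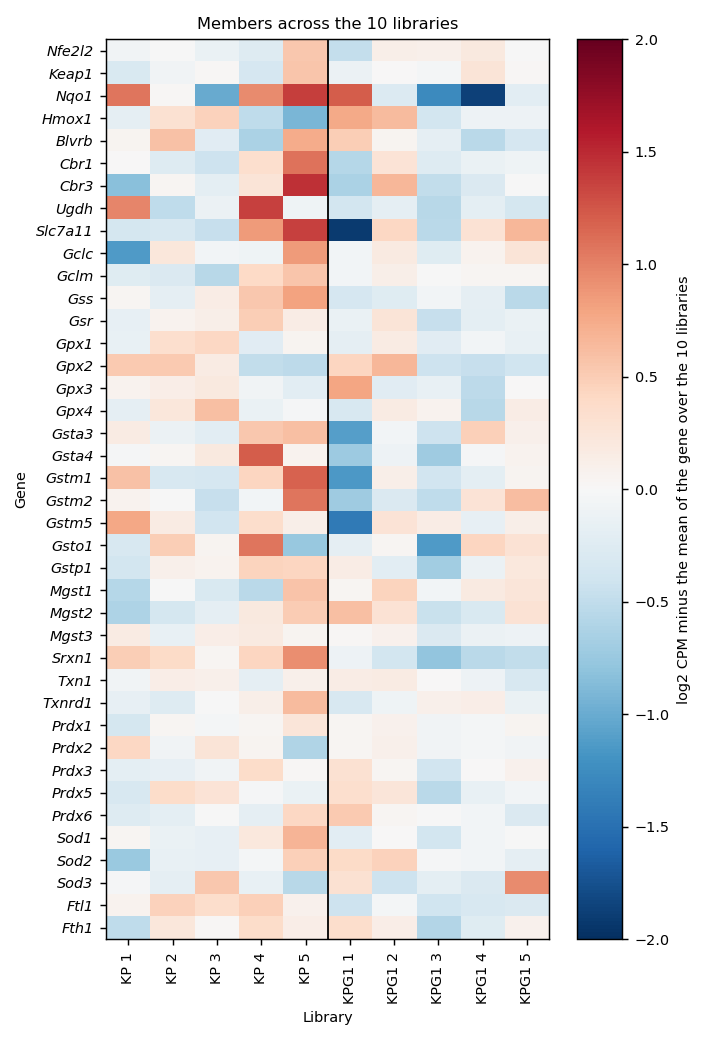
Deviation of each of the 40 genes (rows) from its mean over the 10 libraries (columns, 5 KP and 5 KPG1), in log2 units. KP 5 holds the highest value of 19 genes and KPG1 3 the lowest of 11.

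The wider pathway was read in a list of 77 other NRF2 and glutathione genes, of which 76 were tested (Cyp2a5, with at most 22 counts, was not). The list was chosen with earlier results of these data known, so its shares beside those of all genes are descriptions only. Of the 76 genes, 1, Maff, passed the adjusted threshold (1.32%, against 0.173% of all genes). At an unadjusted p under 0.05, 11 were lower (14.5%, against 6.31%) and 4 higher (5.26%, the same share as of all genes). In KPG1, 6 were lower without overlap (7.89%, against 1.76%). Fitted values lay below 0 for 43 genes (56.6%, against 47.3%), with a median of -0.07. The 18 tested other NRF2 targets had a median of -0.26, with 15 below 0, and the 6 genes of NADPH supply a median of 0.05, with 2 below 0.

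Maff, a small Maf protein that pairs with NRF2, fell in KPG1. It stood at 6.98, 6.72, 6.74, 6.93 and 6.37 log2 CPM in KP and 5.61, 5.42, 5.14, 5.46 and 5.90 in KPG1, with no overlap. The means were 109 ± 17.3 and 46.1 ± 9.0 CPM (SD, n = 5 each), 42.5% of KP, and the fitted log2 fold change was -1.24 ± 0.16 (SE), adjusted p 0.0233. The adjusted p lay under 0.05 in 10 of 19 alternatives and rose to 0.243 with the sample number as a covariate, and leaving out any one of 7 libraries, KP 1, KP 3, KP 4 or KPG1 1 to 4, brought it to 0.0543 to 0.0850. Its relative Mafk stood at 6.04, 5.93, 6.27, 6.03 and 5.79 in KP and 5.36, 5.02, 5.12, 5.24 and 5.52 in KPG1, without overlap, with a fitted value of -0.76 ± 0.13 (SE) and an adjusted p of 0.0513. The third small Maf gene, Mafg, had a fitted value of -0.19.

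Abcc1, a pump that exports glutathione conjugates, stood at 5.46, 5.51, 5.26, 5.76 and 5.01 log2 CPM in KP and 4.71, 4.64, 4.34, 4.36 and 4.33 in KPG1. The groups did not overlap, and the fitted log2 fold change was -0.92 ± 0.16 (SE), adjusted p 0.0513. Osgin1, an oxidative stress response gene, stood at 6.78, 7.18, 7.0, 6.45 and 7.15 in KP and 6.38, 6.63, 6.02, 6.32 and 6.16 in KPG1, a fitted -0.61 ± 0.17 (SE), adjusted p 0.208. Akr1b8, an aldo-keto reductase, stood at 8.08, 8.21, 7.81, 7.78 and 8.11 in KP and 7.47, 7.76, 7.30, 7.54 and 7.59 in KPG1, a fitted -0.47 ± 0.13 (SE), adjusted p 0.213. Of these 3 genes only Osgin1 overlapped between groups, through KP 4 and KPG1 2.

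The 4 genes that were higher in KPG1 at an unadjusted p under 0.05, a share no larger than that of all genes, had adjusted p from 0.197 to 0.405. Gpx8, a peroxidase of the endoplasmic reticulum, stood at 2.74, 1.70, 2.40, 1.64 and 0.73 log2 CPM in KP and 4.71, 3.71, 3.75, 3.12 and 2.55 in KPG1, a fitted 1.77 ± 0.47 (SE), with KP 1 above KPG1 5. Cul3, the scaffold of the ligase that Keap1 serves, stood at 7.46, 7.11, 6.94, 7.33 and 7.65 in KP and 7.44, 7.79, 7.71, 7.81 and 7.63 in KPG1, a fitted 0.38 ± 0.15 (SE). Gstt1, a theta-class transferase, stood at 5.90, 6.42, 6.89, 6.58 and 7.30 in KP and 7.10, 7.14, 7.35, 7.36 and 6.81 in KPG1, a fitted 0.53 ± 0.23 (SE). All 3 overlapped between groups. Ugt1a6a, a glucuronosyltransferase, had a fitted value of 0.65 ± 0.27 (SE), and it shares its position and strand with other Ugt1a genes among which reads may be split.

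**Figure D5:**
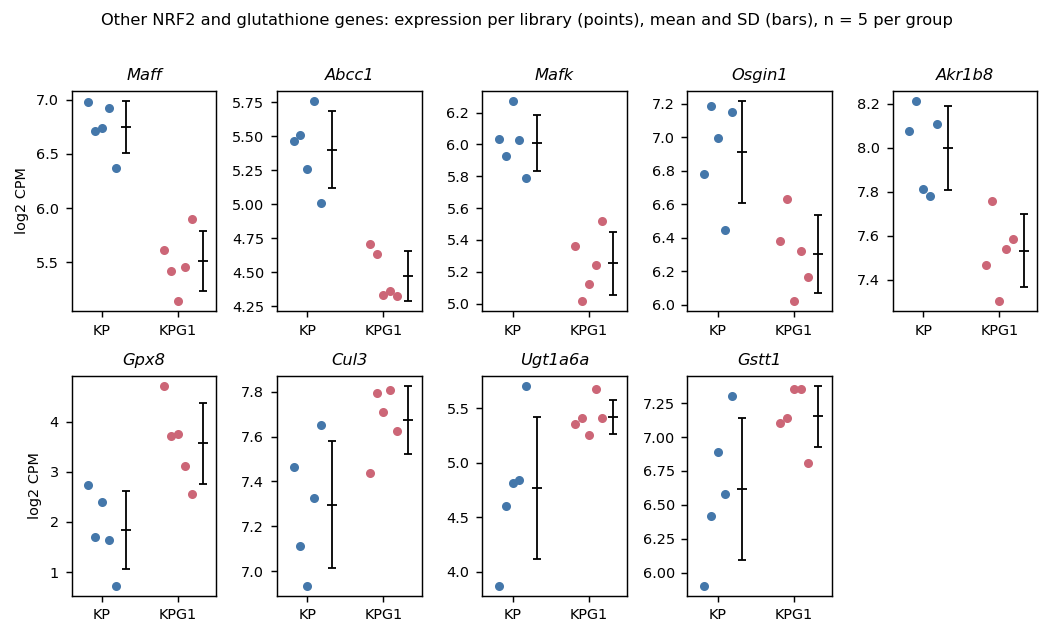
Normalized expression (log2 CPM) of the 9 named genes of the wider pathway list in each KP and KPG1 library, with the mean and SD of each group (n = 5). Maff, Mafk, Abcc1 and Akr1b8 show no overlap between groups, with KPG1 lower.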

How the data were processed

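RNA was sequenced from 10 CD45-negative tumor fractions (5 KP, 5 KPG1, grouped by the labels), with a stranded kit and single-end reads. The authors deposited raw counts per Ensembl gene, both for single libraries and combined, and all 390170 combined values were equal to the single ones. The submitters' processing notes name bcl2fastq 2.17, cutadapt 1.4.2, HISAT2, featureCounts 1.4.4, edgeR and build mm10, and the study's methods give another Cutadapt version. The strand setting and annotation release of the counting are not given in the sources used here. The authors' log2 table was not used. Depth was 32427029 to 49534284 counts per library, and reads carried no molecular identifiers.

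Genes were kept by filterByExpr (16216 of 39017), scaled by TMM (edgeR 4.0.16), and fitted with voom and limma 3.58.1 in R 4.3.3 with genotype as the only term and Benjamini-Hochberg adjustment over all genes tested. The threshold was an adjusted p of 0.05, 2-sided. Normalized expression is log2 CPM with a prior count of 2, and CPM is computed with the scaled library size. DESeq2 1.42.0, edgeR's quasi-likelihood test, other scalings and filters, a weight per library, the sample number in the titles, a replicate block and leaving out each library were the alternatives, 19 in all. Fits were tested on simulated data. The 40 genes and all lists were chosen with earlier results of these data known. Library values are given for both regulators, the core targets Nqo1, Hmox1, Gclc, Gclm, Slc7a11, Srxn1 and Txnrd1, each gene with an unadjusted p under 0.05, the 5 with the largest difference, and up to 5 genes in each direction of the wider list with the smallest unadjusted p. Fth1, Mgst1 and ranges of some others were added after their values were seen. Positions and exon lengths are from GENCODE M21 on mm10. Copies were searched with blastn 2.17.0 (at least 95% identity over 100 bases). Of the 40 genes, 18 had a match, in some cases only to a gene that overlaps them. Promoters are RefSeq windows of 300 bases on GRCm38.p6. Plots used matplotlib 3.10.9. The engineered alleles that start the tumors are not reported here.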

Additional observations from a re-analysis of the deposited data

Results flagged for a closer look

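Each group's 5 values were searched for a single library far from the others, in 98 groups of named or member genes, of which chance would give about 4.9, or 1 in 20. There were 2. Gsta4 in KP 4, at 9.19 log2 CPM, lay above the other KP libraries, at 7.95 to 8.17, with a gap of 0.824 of the group's range. Gstm5, a mu-class glutathione transferase, in KPG1 1, at 2.26 log2 CPM, lay below the other KPG1 libraries, at 3.50 to 3.94, with a gap of 0.742 of the range.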

How the results depend on the processing

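Of the 40 genes, 20 kept the sign of their fitted value under all alternatives run and 20 did not. The 4 with an unadjusted p under 0.05 were among those that kept it. The number past the adjusted threshold, 0, was 2 with DESeq2 (3.38% of all genes passed there), 1 with a mean of at least 20 CPM (0.437%), 2 with a weight per library (1.41%) and 0 to 2 when single libraries were left out (2 without KP 5, 1.78%). The number lower at an unadjusted p under 0.05, 4, was 7 with the sample number as covariate, and the number higher, 0, was 1 with a weight per library, 1 with the sample number and 0 to 1 on leaving out libraries. For the wider list, the 1 adjusted call became 3 with edgeR, 6 with DESeq2, 3 with a weight per library, 0 with the sample number and 0 to 3 without single libraries. Its 11 lower genes became 7 with the sample number and 7 to 15 without single libraries (7 without KPG1 3). Its 4 higher genes became 2 with edgeR, 2 with DESeq2, 13 with a weight per library, 1 with the sample number and 1 to 12 without single libraries (12 without KP 5, 2 without KP 2 or KPG1 2, 1 without KPG1 4). The fold change of Slc2a1 passed with DESeq2 (-1.04, adjusted p 0.000255), with a weight per library (-1.13, 0.0171) and without KP 5 (-1.14, 0.0220), and ranged from -1.14 to -0.92 over the libraries left out. It did not pass under the others, with an adjusted p of up to 0.371 (-0.88, sample number as covariate). The cause of these changes was not tested. Sample numbers were 1, 4, 5, 9 and 10 in KPG1 and 6, 11, 12, 15 and 16 in KP. They largely follow the groups, and only KP 5, at 6, lies within the KPG1 range.

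Among the genes that changed sign were some away from 0: Mgst1 (0.34) went down to -0.035, and Cbr3 (-0.31), Gstm2 (-0.26) and Gsto1 (-0.22) up to 0.013, 0.024 and 0.37. Nfe2l2 was 0.13 with a weight per library and -0.10 to 0.087 over single libraries left out. With the sample number as covariate it was -0.42, with a limma adjusted p of 0.464. Keap1 was -0.20 with the sample number and -0.024 to 0.19 over libraries left out. Slc7a11 was 0.039 with a weight per library. Gclc was -0.046 with edgeR, -0.058 with DESeq2, -0.15 with the sample number and -0.19 to 0.28 over libraries left out. Gclm was -0.011 with edgeR, -0.025 with DESeq2, -0.15 with the sample number and -0.093 to 0.18 over libraries left out. Txnrd1 was 0.050 with a weight per library and -0.21 to 0.00402 over libraries left out, and -0.38 at its lowest over all alternatives.

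The replicate numbers did not pair the libraries. Correlations of same-numbered libraries' deviations ran from -0.16 to 0.08. Among the KP libraries, only KP 4 correlated best with the KPG1 library of its own number. With the replicate block, Slc2a1 had an adjusted p of 0.176, and 5 of all genes passed (28 without it), 0 of the 40 and 0 of the wider list, where 2 were higher at an unadjusted p under 0.05. All genes passing were 548 with DESeq2, 40 with edgeR, 228 with a weight per library, 43 with no filter, 8 with the sample number, and 294 without KP 5. The lowest counts of a gene of the 40 in any library were 72, for Nqo1, and no limit of depth was compared between genes.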
